A study of Mus musculus with 34 samples.

Results

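Ribosome biogenesis and nucleolar genes code for the proteins that make ribosomes: RNA polymerase I, the core proteins of small nucleolar ribonucleoproteins (snoRNPs), nucleolar chaperones and scaffolds, and the factors that assemble the small and large subunits. The group was given as a list of 44 gene symbols, chosen by name with earlier results of these data known. The RNA table of 23812 gene rows held 43 of them, all of which passed the filter on low values together with 10863 genes in all. Noc2l was not analysed here.

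The study mapped enhancers in mouse B cells and compared RNA between activated and resting cells. Activated cells were splenic B cells of the CD43- fraction from C56BL/6J mice aged 6 to 8 weeks, cultured with lipopolysaccharide (LPS, a bacterial membrane component that drives B cells to divide) at 10 µg/ml for 3 days. Resting cells were splenic CD43- B cells of the same strain and age, named as the controls, although their growth and treatment labels repeat the LPS culture. RNA was measured in 2 activated and 2 resting samples. Nothing in the labels ties replicates to separate mice or cultures, so a p-value reflects only how far the samples scatter, perhaps for technical reasons. FAIRE-seq (open chromatin), STARR-seq (DNA that drives transcription of a reporter), chromatin immunoprecipitation of H3K27ac and H3K4me3 (histone marks of active regulatory DNA and of active starts) and Hi-C (DNA contacts) were read from lists of activated cells only.

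Ribosomes are made in the nucleolus. RNA polymerase I transcribes the ribosomal RNA precursor, snoRNPs guide its chemical modification, and assembly factors fold it, cut it and join it to ribosomal proteins until the small and large subunits leave for the cytoplasm. Lymphocytes that leave quiescence enlarge their nucleoli and make more ribosomes, and the transcription factor MYC is a known activator of many genes of this group.

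RNA values came with no named unit and were treated as FPKM (fragments per kilobase, scaled to the number of mapped reads). If they are FPKM, levels can be compared between genes. FPKM are relative to the RNA of each sample, and in these bulk samples fewer cells of a type and less RNA per cell cannot be told apart. FPKM over all rows summed to between 244602 and 287884 per sample, and the depth is unknown. Pearson r over tested genes was 0.974 between the activated and 0.981 between the resting replicates, and 0.744 to 0.790 between groups. Summed over 6 B cell markers, FPKM were 2005 and 1426 in activated samples, against 3219 and 3590 in resting samples, and 5 of the 6 were called lower. Markers of other cells summed to less in activated than in resting samples, but not every marker was present in resting samples. Hbb-b1, an erythroid marker, still had 11.5 and 4.24 FPKM in activated samples. In resting replicate 1 the neutrophil markers Elane and Camp were at 0. There Cd3e, Cd3d and Cd3g were at 0.135, 0.0491 and 0.0668 FPKM, against 5.48 for Cd4 and 4.21 for Cd8a. The 7 macrophage and monocyte markers summed to 0.407 and 0.726 FPKM in activated samples, against 390.6 and 425.7 FPKM in resting samples, with C1qa and C1qb listed at 0 in both activated samples. The 3 erythroid markers found, of 4 listed, summed to 11.7 and 4.35 FPKM in activated samples, against 410.2 and 2436 FPKM in resting samples. Smaller sums were found for 7 T and NK cell markers, at 0.027 and 0.0337 FPKM in activated samples, against 10.3 and 20.2 FPKM in resting samples, and for 4 neutrophil markers, at 0 and 0.212 FPKM in activated samples, against 1.40 and 25.9 FPKM in resting samples. The part of these other cells in the values of the ribosome biogenesis genes was not tested.

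Ribosome biogenesis genes were higher in activated cells almost throughout. With limma, 35 of the 43 were called higher at an adjusted p under 0.05 and 0 were called lower, against 28.2% of all tested genes called higher and 26.2% called lower. At an unadjusted p under 0.05 the number lower was also 0, and all 43 fitted differences were above 0, of which those of Nop10 and Imp3 turned below 0 with quantile normalization. Both activated samples lay above both resting samples for 41 members, against 41.5% of all tested genes. The median log2 difference, activated minus resting on the scale of log2(FPKM + 1), was 0.87 over the members and 0.03 over all tested genes. It ran from 0.14 for Nop10 to 1.87 for Npm1, and 14 members were called higher with at least a 2-fold change, against 14% of all tested genes. Summed over the 43 members, FPKM were 1561 and 2017 in activated samples, against 813 and 857 in resting samples. Leaving out 1 sample changed the number called higher to 18 without resting replicate 2 and to 22 without resting replicate 1, to 39 without activated replicate 1 and to 30 without activated replicate 2.

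**Figure D1:**
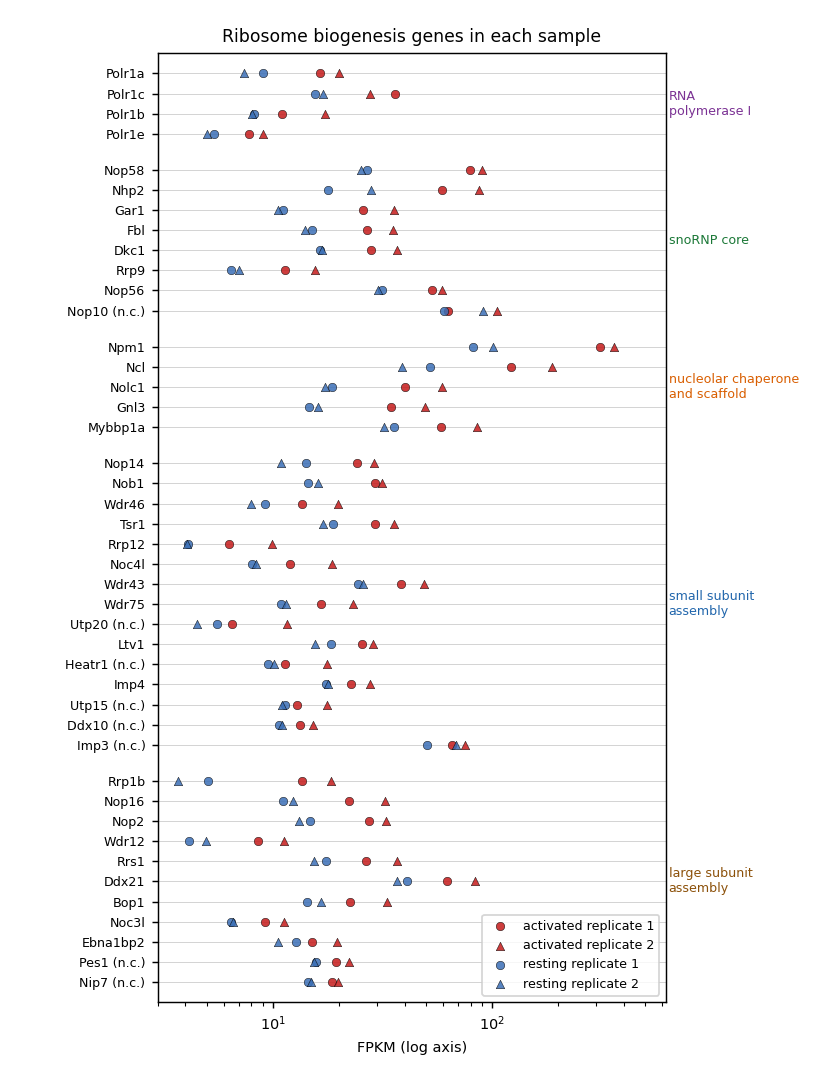
FPKM of each of the 43 members in each sample, on a log axis, grouped by role and ordered by their difference within a role. Red points are activated and blue points resting samples, n.c. marks the 8 members not called, and in all but Nop10 and Imp3 both red points lie to the right of both blue points.

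The 6 promoters printed here are shown because the chromatin peaks described further on gather at the gene starts and because they show where a MYC-type E-box lies. They run from 250 bases before the start to 50 bases from it, 5′ to 3′ on the strand of the gene, from RefSeq on GRCm38.p6. Capitals mark CACGTG, the E-box that MYC and MAX bind. Nop2 (chr6:125131633-125131932, plus strand) methylates ribosomal RNA of the large subunit, Mybbp1a (chr11:72441077-72441376, plus) is a nucleolar MYB-binding protein, and Wdr46 (chr17:33940473-33940772, plus), Tsr1 (chr11:74897830-74898129, plus) and Wdr43 (chr17:71615965-71616264, plus) take part in small subunit assembly. Ncl (chr1:86359406-86359705, minus) codes for nucleolin and is printed as a strongly changed member with no CACGTG in this window.
Nop2: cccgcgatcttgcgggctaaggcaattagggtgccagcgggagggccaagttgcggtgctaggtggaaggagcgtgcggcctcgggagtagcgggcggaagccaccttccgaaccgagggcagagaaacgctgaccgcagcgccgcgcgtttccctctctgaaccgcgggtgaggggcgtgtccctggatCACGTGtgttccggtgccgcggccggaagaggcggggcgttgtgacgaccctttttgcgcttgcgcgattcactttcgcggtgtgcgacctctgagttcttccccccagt
Mybbp1a: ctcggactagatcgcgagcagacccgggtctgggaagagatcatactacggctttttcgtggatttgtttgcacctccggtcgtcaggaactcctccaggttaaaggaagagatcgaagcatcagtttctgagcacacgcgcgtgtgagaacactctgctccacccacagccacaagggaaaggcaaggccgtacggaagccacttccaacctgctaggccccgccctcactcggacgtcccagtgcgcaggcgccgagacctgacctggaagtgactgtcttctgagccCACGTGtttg
Wdr46: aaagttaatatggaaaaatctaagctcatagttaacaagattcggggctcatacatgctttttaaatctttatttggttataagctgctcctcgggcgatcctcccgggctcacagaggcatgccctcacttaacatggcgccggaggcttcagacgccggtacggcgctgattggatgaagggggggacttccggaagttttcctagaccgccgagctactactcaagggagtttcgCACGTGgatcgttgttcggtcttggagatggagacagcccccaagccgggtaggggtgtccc
Tsr1: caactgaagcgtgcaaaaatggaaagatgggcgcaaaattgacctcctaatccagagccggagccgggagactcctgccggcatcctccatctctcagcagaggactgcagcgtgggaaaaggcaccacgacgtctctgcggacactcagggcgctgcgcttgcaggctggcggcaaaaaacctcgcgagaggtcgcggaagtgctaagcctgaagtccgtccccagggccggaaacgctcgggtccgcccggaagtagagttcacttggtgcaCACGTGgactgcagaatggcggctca
Wdr43: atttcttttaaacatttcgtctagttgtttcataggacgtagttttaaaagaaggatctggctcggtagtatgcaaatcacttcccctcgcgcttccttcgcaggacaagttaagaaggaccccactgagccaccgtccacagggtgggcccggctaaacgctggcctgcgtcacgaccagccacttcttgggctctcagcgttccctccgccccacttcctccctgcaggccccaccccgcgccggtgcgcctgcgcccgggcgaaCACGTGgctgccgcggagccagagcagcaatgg
Ncl: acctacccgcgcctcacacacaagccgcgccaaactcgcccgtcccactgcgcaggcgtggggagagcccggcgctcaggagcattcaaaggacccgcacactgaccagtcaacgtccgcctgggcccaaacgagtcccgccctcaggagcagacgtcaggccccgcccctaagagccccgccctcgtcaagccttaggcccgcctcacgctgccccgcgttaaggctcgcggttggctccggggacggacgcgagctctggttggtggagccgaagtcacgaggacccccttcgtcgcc
Counting the first base of the gene as 1 and the base before it as -1, the E-box began at -60 in Nop2, at 41 in Mybbp1a, at -12 in Wdr46, at 25 in Tsr1 and at 18 in Wdr43.

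Promoters were found for 38 of the 43 members, all except Npm1, Fbl, Bop1, Rrs1 and Rrp12. CACGTG, which reads the same on both strands, was in the 300 bases of 9 of the 38 members (23.7%), against 12.4% of all tested genes, 12.8% of genes called higher and 7.15% of all promoters of the table. The other 4 members with it were Imp4 at -121, Ltv1 at 29, Pes1 at 3 and Utp20 at 38. In 6 of the 9 it lay in the 50 bases from the start, a window added after the data had been seen. In that window 15.8% of members, 2.06% of all tested genes and 1.08% of all promoters held it. In the 250 bases before the start it was in 7.89% of members and 10.3% of tested genes. The median log2 difference in RNA was 0.77 over the 9 members with it and 0.89 over the 29 without it. Of the 9, Pes1 and Utp20 were not called, and over all 43 members 8 were not called. A match is a description of the letters and was not tested as a binding site.

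Other motifs were searched as exact letters on both strands of the same 300 bases. CCGGAAG, the core that ETS factors bind, was in 14 of 38 members (36.8%), against 22.3% of all tested genes. GGGCGG, the GC box, was in 73.7% of members and 69.2% of tested genes, and CCAAT was in 42.1% of members and 43.8% of tested genes. TGCGCA, a half-site of NRF1, was in 13.2% of members and 16.9% of tested genes, and TATAAA was in 5.26% of members and 8.31% of tested genes. None of these letter strings contains another. The median GC content of the members' promoters was 57.3%, against 60.7% over all tested genes.

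The 4 members that code for subunits of RNA polymerase I were all called higher, with a median log2 difference of 0.81. Polr1a, the largest catalytic subunit, had 16.5 and 20.1 FPKM in activated samples, against 9.04 and 7.41 FPKM in resting samples (log2 difference 1.06 ± 0.17 SE, adjusted p = 0.00265). Polr1c, which RNA polymerases I and III share, had 36.3 and 27.8 FPKM in activated samples, against 15.6 and 17.0 FPKM in resting samples (0.92 ± 0.18, adjusted p = 0.00573). The groups did not overlap for either gene, and Polr1c was the highest of the 4 in both activated samples. Polr1b, the other subunit that forms the active centre, had 11.0 and 17.3 FPKM in activated samples, against 8.22 and 8.07 FPKM in resting samples (0.70 ± 0.22, adjusted p = 0.0326). Polr1e, a subunit of the initiating form of the enzyme, had 7.79 and 9.01 FPKM in activated samples, against 5.41 and 5.03 FPKM in resting samples (0.59 ± 0.16, adjusted p = 0.0173). The groups were separate for both genes, and Polr1b was called in 1 of the 4 fits that left out a sample.

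Of the 8 members grouped as snoRNP core proteins, among them the U3 protein Rrp9, 7 were called higher. The median log2 difference over the 8 was 0.97. Box C/D particles methylate ribosomal RNA and box H/ACA particles turn uridine into pseudouridine. Nop58, a box C/D core protein, had 79.8 and 90.1 FPKM in activated samples, against 26.8 and 25.2 FPKM in resting samples (1.67 ± 0.17, adjusted p = 0.00046, the lowest of all members). Fbl, fibrillarin, the methyltransferase of the same particle, had 26.95 and 35.3 FPKM in activated samples, against 15.2 and 13.98 FPKM in resting samples (1.03 ± 0.18, adjusted p = 0.00352). Their partner Nop56 averaged 56.1 ± 4.30 FPKM in activated and 30.9 ± 0.84 FPKM in resting cells (SD, n = 2 each), with a log2 difference of 0.84. These 3 box C/D proteins among the members all rose, with the largest fitted difference in Nop58.

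Among the box H/ACA proteins, Nhp2 had 59.3 and 86.9 FPKM in activated samples, against 17.9 and 28.2 FPKM in resting samples (1.63 ± 0.28, adjusted p = 0.00321). Gar1 had 25.9 and 35.7 FPKM in activated samples, against 11.2 and 10.6 FPKM in resting samples (1.40 ± 0.19, adjusted p = 0.0013). Dkc1, dyskerin, the pseudouridine synthase, averaged 32.6 ± 6.202 FPKM in activated and 16.7 ± 0.299 FPKM in resting cells (SD, n = 2 each), with a log2 difference of 0.92. In all 3 the activated samples lay above the resting ones. Nop10, the smallest core protein, had 63.2 and 106 FPKM in activated samples, against 60.7 and 90.7 FPKM in resting samples. Its groups overlapped, its log2 difference of 0.14 ± 0.31 was not called (adjusted p = 0.726), and its sign turned with quantile normalization, at -0.10. In both groups replicate 2 was the higher sample of Nop10, which ranked 2 of the 43 members by mean level in resting cells and 4 in activated cells. Rrp9, which binds the U3 snoRNA, averaged 13.5 ± 2.98 FPKM in activated and 6.75 ± 0.406 FPKM in resting cells, with a log2 difference of 0.89 (adjusted p = 0.00707).

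The nucleolar chaperones and scaffolds had the highest median difference of the 5 roles, 1.39, and all 5 were called higher with at least a 2-fold change. Npm1 (nucleophosmin, a chaperone of histones and ribosomal proteins, mm9 chr11:33052497-33063206) had 312 and 362 FPKM in activated samples, against 82.2 and 101.4 FPKM in resting samples (1.87 ± 0.23, adjusted p = 0.000825). Ncl (mm9 chr1:88241293-88256030) had 122 and 188 FPKM in activated samples, against 52.1 and 38.9 FPKM in resting samples (1.73 ± 0.27, adjusted p = 0.00232). These were the most abundant members in activated cells, each separated by its samples from the member next in order. Nolc1, a scaffold that carries snoRNPs, had 40.0 and 59.0 FPKM in activated samples, against 18.7 and 17.3 FPKM in resting samples (1.39 ± 0.22, adjusted p = 0.00224). Gnl3, nucleostemin, a nucleolar GTPase, had 34.5 and 49.7 FPKM in activated samples, against 14.6 and 16.1 FPKM in resting samples (1.38 ± 0.21, adjusted p = 0.00196). For all 4 genes the lower activated sample was above the higher resting one, and each was called in all 4 fits that left out a sample. Mybbp1a averaged 71.7 ± 18.9 FPKM in activated and 33.9 ± 2.55 FPKM in resting cells (SD, n = 2 each), with a log2 difference of 1.04.

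Of the 15 members that assemble the small subunit 10 were called higher and 5 were not, and the median log2 difference was 0.77. Nop14, of the small subunit processome, the large particle that first packages the ribosomal RNA precursor, had 24.3 and 29.1 FPKM in activated samples, against 14.2 and 10.9 FPKM in resting samples (1.04 ± 0.18, adjusted p = 0.00381). Nob1, the endonuclease that makes the final cut at the end of 18S ribosomal RNA, had 29.4 and 31.6 FPKM in activated samples, against 14.5 and 16.1 FPKM in resting samples (0.95 ± 0.15, adjusted p = 0.00254). Wdr46 had 13.6 and 19.8 FPKM in activated samples, against 9.18 and 7.95 FPKM in resting samples (0.87 ± 0.20, adjusted p = 0.0118). None of these groups overlapped, and Nob1 had closely spaced activated samples. Tsr1, a late factor related to GTPases, had 29.4 and 35.7 FPKM in activated samples, against 18.9 and 16.9 FPKM in resting samples (0.82 ± 0.17, adjusted p = 0.00722). The other 6 called genes, Rrp12, Noc4l, Wdr43, Wdr75, Ltv1 and Imp4, had log2 differences between 0.48 and 0.81. Imp4 was called in 4 of the 8 fits that kept all samples without a block and in 1 of the 4 that left one out, and Rrp12 and Noc4l in 7 of the 8 and 2 of the 4. Rrp12 was the lowest member by level, at 8.10 ± 2.53 FPKM in activated and 4.08 ± 0.0466 FPKM in resting cells (SD, n = 2 each).

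The 5 small subunit members that were not called were Utp20, Heatr1, Utp15, Ddx10 and Imp3. Utp20, a very large scaffold protein of the processome, had 6.51 and 11.6 FPKM in activated samples, against 5.59 and 4.50 FPKM in resting samples (0.69 ± 0.26, adjusted p = 0.0597). Heatr1, the counterpart of yeast Utp10, had 11.3 and 17.8 FPKM in activated samples, against 9.51 and 10.2 FPKM in resting samples (0.49 ± 0.22, adjusted p = 0.0973). Utp15, in the same early subcomplex, had 12.9 and 17.6 FPKM in activated samples, against 11.3 and 11.1 FPKM in resting samples (0.40 ± 0.18, adjusted p = 0.103). These 3 had separate groups, with activated replicate 2 well above replicate 1. Ddx10, an RNA helicase, had 13.3 and 15.2 FPKM in activated samples, against 10.7 and 11.1 FPKM in resting samples (0.36 ± 0.15, adjusted p = 0.0784). Imp3, a U3 snoRNP protein of the same complex as Imp4, had 66.1 and 75.7 FPKM in activated samples, against 50.5 and 68.5 FPKM in resting samples (0.26 ± 0.22, adjusted p = 0.34). The groups of Imp3 overlapped, and with quantile normalization its difference was -0.01. Imp3 was the most abundant of the 15 in both groups.

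Of the 11 analysed members that assemble the large subunit 9 were called higher, with a median log2 difference of 0.88 over the 11. Rrp1b, a nucleolar protein, had 13.6 and 18.4 FPKM in activated samples, against 5.05 and 3.69 FPKM in resting samples (1.66 ± 0.21, adjusted p = 0.000942). Nop16 had 22.4 and 32.7 FPKM in activated samples, against 11.1 and 12.4 FPKM in resting samples (1.14 ± 0.21, adjusted p = 0.00413). Nop2 had 27.4 and 33.0 FPKM in activated samples, against 14.8 and 13.2 FPKM in resting samples (1.06 ± 0.17, adjusted p = 0.00233). The activated samples of all 3 lay above the resting ones, and each was called in all 4 fits that left out a sample. Ddx21, an RNA helicase of the nucleolus and the most abundant of the 11, had 62.5 and 83.7 FPKM in activated samples, against 41.1 and 36.8 FPKM in resting samples (0.88 ± 0.21, adjusted p = 0.012). Rrs1, which helps to place the 5S particle, had a log2 difference of 0.89, and Noc3l and Ebna1bp2 had 0.57 and 0.53. Ebna1bp2 was called in 3 of the 8 fits that kept all samples without a block and in 1 of the 4 that left one out.

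Pes1, Bop1 and Wdr12 form one complex, PeBoW, which is needed for the large subunit RNAs to mature. Wdr12 had 8.55 and 11.3 FPKM in activated samples, against 4.16 and 4.95 FPKM in resting samples (0.97 ± 0.18, adjusted p = 0.00495). Bop1 averaged 27.8 ± 7.51 FPKM in activated and 15.5 ± 1.65 FPKM in resting cells (SD, n = 2 each), with a log2 difference of 0.79 (adjusted p = 0.0199). Pes1 had 19.5 and 22.2 FPKM in activated samples, against 15.8 and 15.5 FPKM in resting samples, and was not called (0.39 ± 0.15, adjusted p = 0.0644). Whether the 3 differences differ from each other was not tested. Nip7, a late factor of the large subunit, had 18.7 and 19.8 FPKM in activated samples, against 14.5 and 15.0 FPKM in resting samples, and was not called (0.36 ± 0.14, adjusted p = 0.07). Its groups and those of Pes1 did not overlap, but the gap was narrow.

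**Figure D2:**
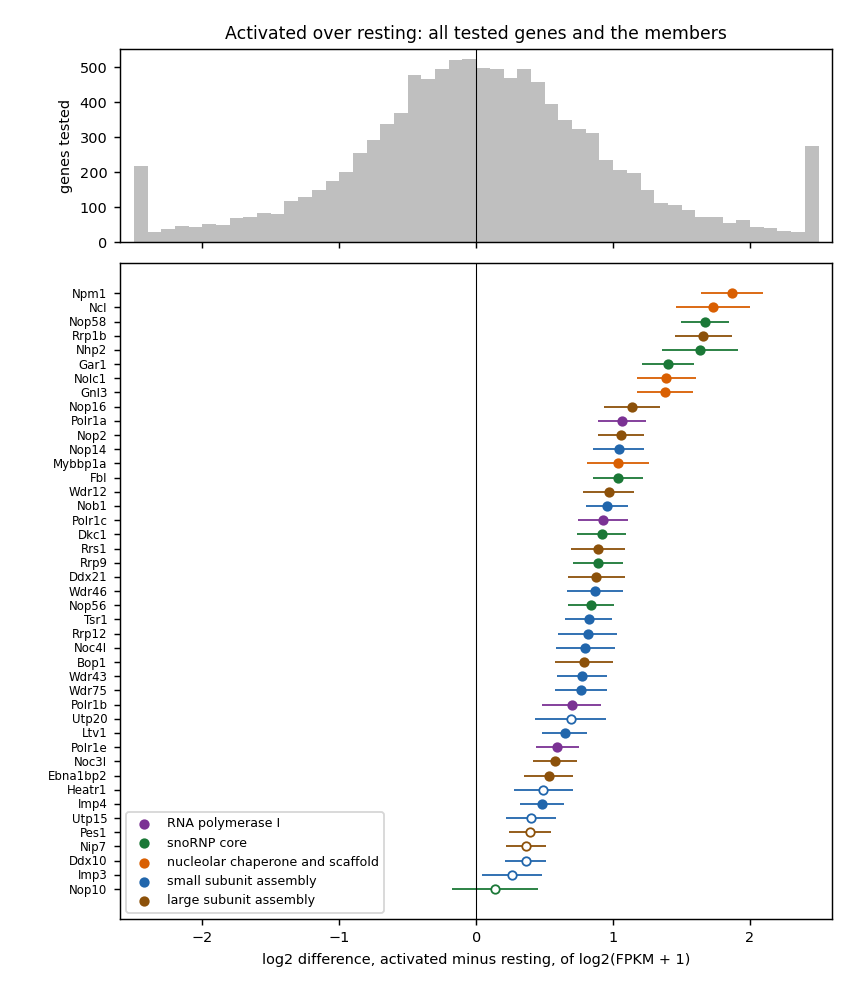
Lower panel: log2 difference, activated minus resting, of each member with its standard error from limma, coloured by role, filled where called and open where not. Upper panel: the same difference over 10863 tested genes, with genes beyond the axis gathered in the outermost bars; all members lie above 0 with the values as deposited, Nop10 and Imp3 turning below it with quantile normalization, with a median of 0.87 against 0.03 over all tested genes.

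Levels spanned a wide range. In activated cells Npm1 and Ncl led at 337 and 155 FPKM. Nop58, Nop10, Nhp2, Ddx21, Mybbp1a and Imp3 followed between 70.9 and 84.97 FPKM, and none of these was separate from the next in order except Imp3. In resting cells Npm1 also led, at 91.8 FPKM, followed by Nop10 at 75.7, Imp3 at 59.5 and Ncl at 45.5 FPKM. Over the 43 members, the log2 difference had a Pearson r of 0.133 and a Spearman rho of 0.132 with the resting level, which shares the resting samples with the difference. With locus length Pearson r was 0.0651. Neither is a finding about single genes, since members are not independent replicates.

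The 2 activated samples differed from each other for nearly the whole group. Activated replicate 2 was above replicate 1 in 42 of 43 members, with Polr1c the exception, against 56.4% of all tested genes. The median log2 ratio of replicate 2 over replicate 1 was 0.38 in activated cells, where all tested genes had 0.05, and -0.02 in resting cells, where replicate 2 was higher in 20 of 43. Cytosolic ribosomal protein genes, a list drawn up after the data had been seen, went the other way: replicate 2 was higher in 6 of 78 in activated cells, with a median of -0.42, and in 69 of 78 in resting cells, with a median of 0.40. The median difference of the 43 members was 1.09 without activated replicate 1 and 0.67 without activated replicate 2. The part of depth, culture or library in this was not tested.

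**Figure D3:**
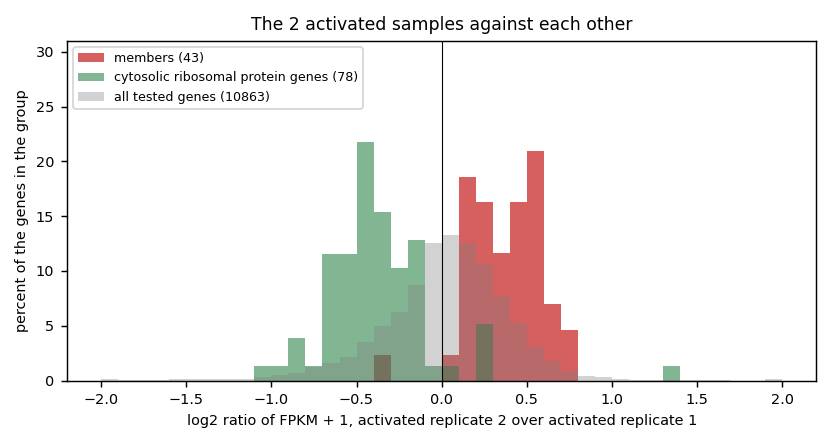
Log2 ratio of FPKM + 1 between the 2 activated samples, replicate 2 over replicate 1, as the percent of genes per bin in 43 members, 78 cytosolic ribosomal protein genes and 10863 tested genes. The members lie to the right of 0 in 42 of 43 cases and the ribosomal protein genes mostly to the left.

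Genes for the proteins of the cytosolic and mitochondrial ribosomes were read beside the members. Of 78 cytosolic ribosomal protein genes 20 were called higher, against 28.2% of all tested genes, a share near that background, with a median log2 difference of 0.50. Of 76 mitochondrial ribosomal protein genes 52 were called higher, with a median of 0.75. In neither list was a gene called lower by limma, while 0 cytosolic and 1 mitochondrial gene were lower at an unadjusted p under 0.05. Genes of the cytosolic list have near-identical copies and pseudogenes elsewhere in the genome, which can make their values uncertain, and this was not tested. The difference of this list from the 43 members was not tested either.

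Other genes of the pathway, 106 in 5 lists, were called higher in 60 cases and lower in 1, with a median log2 difference of 0.57, against 28.2% called higher, 26.2% called lower and a median of 0.03 over all tested genes. Without resting replicate 1 the number called higher was 27, without resting replicate 2 it was 36, and without activated replicate 2 it was 38. Of 12 further RNA polymerase I subunits and factors, 4 were called higher, near the share of all tested genes, and 1 lower, with a median of 0.15. Taf1d, a subunit of the promoter selectivity factor SL1, had 56.9 and 39.5 FPKM in activated samples, against 20.1 and 17.2 FPKM in resting samples (1.31). Cd3eap, a polymerase I subunit, had a log2 difference of 0.80. Taf1c, also of SL1, was the 1 gene called lower, with 5.16 and 6.59 FPKM in activated samples, against 8.66 and 10.4 FPKM in resting samples (-0.62, adjusted p = 0.0243). Its call was lost without a filter on low values and in 3 of the 4 fits that left out a sample.

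Genes listed under snoRNP assembly were called higher in 8 of 10 cases with a median of 1.01. They were led by Naf1, an H/ACA assembly factor, at 1.47, and Ruvbl1, an ATPase of a chaperone complex, at 1.26. Other small subunit factors were called higher in 19 of 34 cases with a median of 0.53, led by Cirh1a, of the processome, at 1.37 and Pno1, a partner of Nob1, at 1.32. Other large subunit factors were called higher in 21 of 38 cases with a median of 0.60, led by Mrto4 at 1.51 and Rpf2, a partner of Rrs1, at 1.19. The exosome, which trims ribosomal RNA precursors, had 8 of 12 genes called higher with a median of 0.64, led by its nuclease Dis3 at 1.19 and by Exosc7 at 1.01.

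Chromatin at the loci was read in activated cells only, from 1 list per assay with no replicate, so no change on activation can be given. Within the locus and 1 kb on each side, all 43 members had an H3K27ac peak, against 89.0% of all tested genes. H3K4me3 and FAIRE peaks were each at 42 members (97.7%), against 90.6% and 92.5% of tested genes. STARR peaks were at 34 members (79.1%), against 60.8% of tested genes and 63.6% of all genes called higher. At 33 members (76.7%) a STARR peak overlapped a FAIRE peak, against 56.3% of tested genes. None of the 43 had a super-enhancer, a long domain of H3K27ac, against 0.46% of tested genes.

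STARR peaks sat at the starts of the genes. Of the 38 members whose strand RefSeq gives, 29 had a STARR peak, and in 21 it covered the start. Of their 32 STARR peaks, 28 were centred within 1 kb of the start, with a median distance of 65.5 bases over the 32. Within 1 kb of the start 71.1% of members had a STARR peak, against 50.8% of tested genes and 55.4% of genes called higher, a window chosen after the data had been seen. In the promoters printed above, the STARR peak covered the start of Ncl, Nop2 and Mybbp1a, was centred at -181 bases from the start in Wdr46 and at -276 bases in Wdr43, and Tsr1 had none. The exceptions lay inside the genes, at 21592 bases from the start in Wdr75, 16336 in Polr1a, 11889 in Ddx21 and 1358 in Polr1b. Wdr75, Polr1a, Gar1 and Fbl had 2 STARR peaks each and no member had more.

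**Figure D4:**
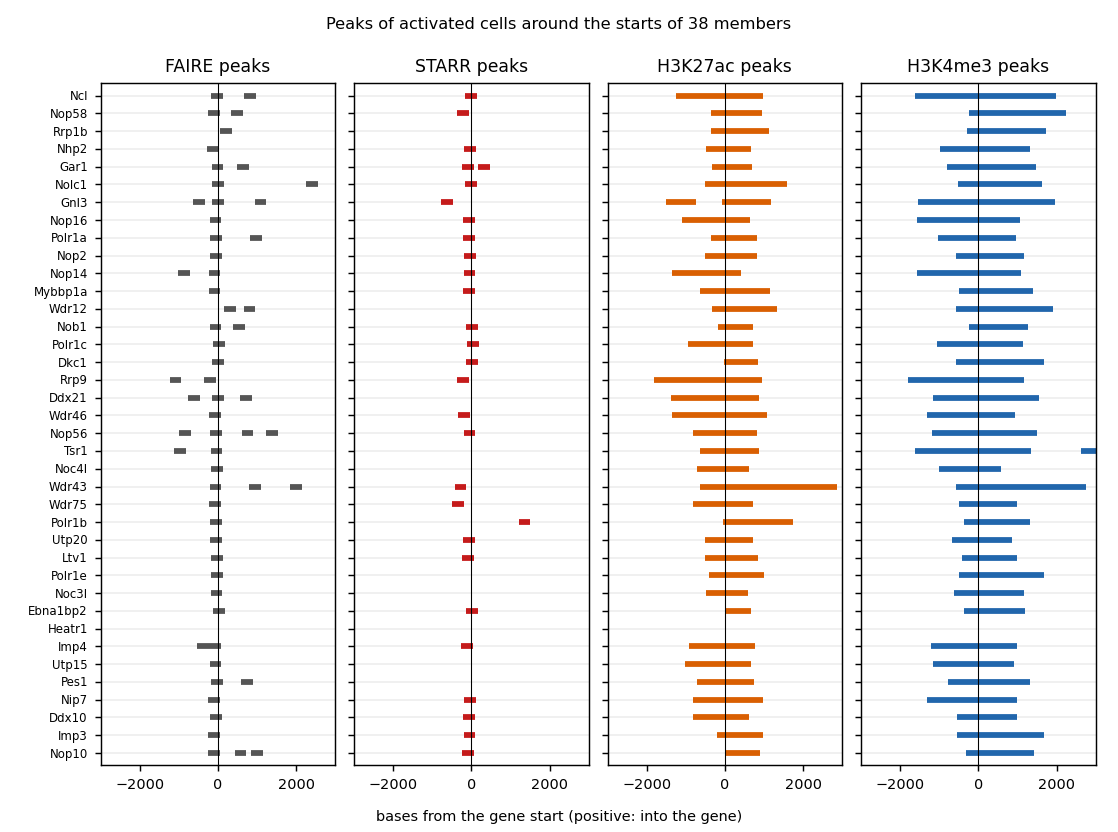
Peaks of activated cells within 3 kb of the start of 38 members, drawn to scale along the distance from the start in bases, for FAIRE, STARR, H3K27ac and H3K4me3. Members run from the highest RNA difference at the top to the lowest; STARR peaks cover the start in 21 of 38, and Heatr1 has no peak of any list there.

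The 9 members with no STARR peak were Wdr12, Pes1, Tsr1, Heatr1, Utp15, Rrp1b, Noc3l, Polr1e and Noc4l. Their median log2 difference was 0.59, against 0.89 over the 34 with a peak, and the ranges overlapped, from 0.39 to 1.66 without and from 0.14 to 1.87 with one. Rrp1b, one of the 4 members with the largest difference, was without a STARR peak, and the nearest one lay 28.4 kb away. Heatr1 was the only member with neither a FAIRE nor an H3K4me3 peak, the nearest lying 21.5 and 21.9 kb away. Its 2 H3K27ac peaks lay inside the gene, centred 16917 and 20666 bases from the start, while its RNA was at 11.3 and 17.8 FPKM in activated samples.

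The authors' Hi-C list is filtered for contacts between enhancers and promoters, and 42 of 43 members had a contact in it, all except Dkc1, against 81.0% of tested genes and 87.9% of genes called higher. The median was 7 contacts per member, against 4 over tested genes and 5 over genes called higher. The anchors have several widths and can nest. Merging overlapping other anchors of the same member turned the 325 contacts to other loci into 260 partner regions. Regions of different members were not merged, and some overlap. The 325 contacts had a median distance of 554.1 kb, and their read counts ran from 5 to 184 with a median of 6. A contact counted here if its other anchor lay outside the member's window, and the anchors of the contact with 184 reads overlap each other. A STARR peak lay in 77.5% of the other anchors and an H3K27ac peak in 86.2%. The same shares were not computed for contacts of all tested genes, so these values show no trait of the members. No listed contact joined a member to another member. All 27903 distinct contacts of the list lie within 1 chromosome, so it could not show contacts between members on different chromosomes.

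Wdr46 had the most contacts, 42, followed by Nop14 with 19, Ddx21 and Nop2 with 18 each, and Fbl and Imp3 with 13 each. Wdr46 lies among the genes of the major histocompatibility complex, and among its contacts to other loci the one with most reads, 96, reached the locus of Daxx 27.3 kb away. Nop14 had 73 reads in a contact with the Tnip2 locus 142.7 kb away. Ddx21 had 184 reads in a contact whose anchors overlap each other, with centres 2.02 kb apart, and 95 reads with the Srgn locus 80.8 kb away. With fewer reads, 86, it was joined to Ddx50, a gene of a closely related helicase 48.2 kb away, which was not called. Nop2 contacted the locus of Gapdh and Ncapd2, both called higher, with 20 reads at 35.5 kb, and that of Vamp1, called lower, with 50 reads at 75.8 kb. Npm1, the member with the largest RNA difference, had 7 contacts of at most 8 reads each, at distances from 523.4 to 7484 kb. The authors' score (z) of these 7 ran from 3.18 to 15.9, against 3.68 for the Wdr46 contact with 96 reads. Read counts at unlike distances do not rank the contacts. Reads are the authors' counts over pooled libraries.

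The genes beside the members were read in the same fit. At 28 members another row of the table lay inside the locus, overlapped it or lay within 1 kb, 44 rows in all. Of these 11 were snoRNAs, 10 of them listed at 0 in all samples and Snora75, inside Ncl, at 9.99 FPKM in activated replicate 2 only. Whether the libraries could capture snoRNAs was not tested, so a value of 0 does not show that one is absent. Of the other 33 rows 26 were tested: 4 were called higher, 10 lower and 12 neither, against 28.2% higher and 26.2% lower over all tested genes, with a median log2 difference of -0.37. Of the 12 that face a member head to head by RefSeq strand, 1 was called higher and 3 lower.

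Spns2, 87 bases from the end of Mybbp1a, had 1.01 and 0.595 FPKM in activated samples, against 11.7 and 14.7 FPKM in resting samples (-2.98 ± 0.20, adjusted p = 9.15e-05). Parp3, which faces Rrp9 head to head at 657 bases, had 7.37 and 3.01 FPKM in activated samples, against 22.9 and 22.1 FPKM in resting samples (-2.02 ± 0.32, adjusted p = 0.00256). Tmed6, 555 bases from Nip7 and tail to tail with it, had 43.8 and 88.4 FPKM in activated samples, against 0.329 and 0.5 FPKM in resting samples (5.49 ± 0.31, adjusted p = 6.48e-05). Spns2 and Parp3 fell beside members that rose, and Tmed6 rose beside Nip7, which was not called. Lgals8 beside Heatr1 had -1.33, Iffo1 beside Nop2 -1.01 and Dyrk1b beside Fbl -0.88, and all 3 were called lower. H2-Ke2 beside Wdr46 had 1.04 and Glt8d1, which overlaps Gnl3, had 0.96, both called higher. The table gives no strand, so reads where genes overlap cannot be told apart.

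**Figure D5:**
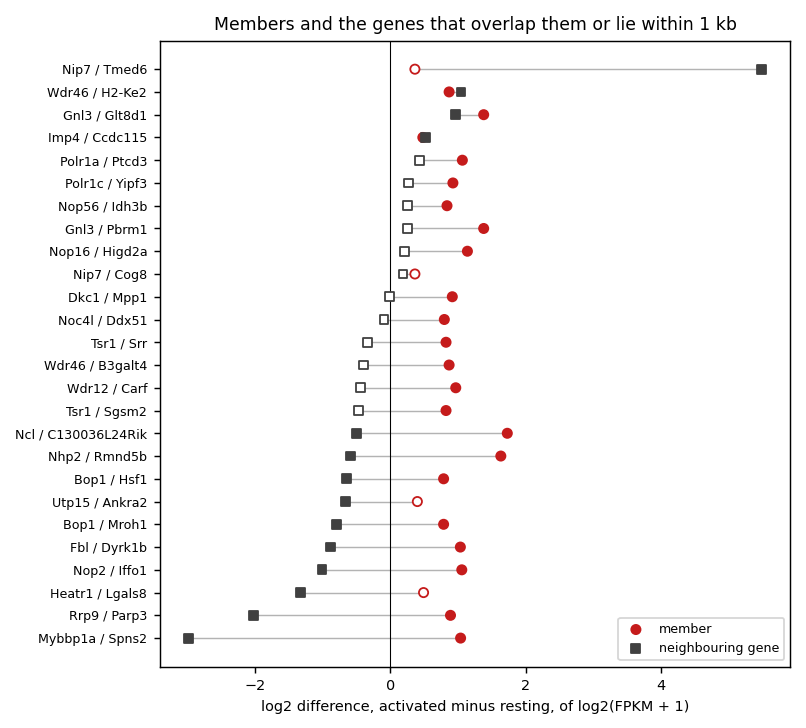
Log2 difference, activated minus resting, of each member (red circles) and of the 26 tested genes that overlap it or lie within 1 kb (grey squares), joined by a line and filled where called. Most squares lie to the left of their circles, with 10 neighbours called lower and 4 called higher.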

How the data were processed

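Mouse splenic CD43- B cells were measured as labelled, in 2 activated and 2 resting RNA samples of 34 samples in the series. The deposited RNA table gives 1 value per gene and sample with no named unit; the values were treated as FPKM made by the authors, because they are not whole and their sums differ. The submitters' processing notes name mm9, Bowtie2, Bowtie, HOMER, bedtools, TopHat2 and STAR, with no role or version, and per the series design peaks of FAIRE and STARR were called with HOMER. Read depth and strand are not given. For each Hi-C contact the authors deposited a read count and a score (z), kept as they stand and not recomputed. Coordinates of the RNA, peak and Hi-C files are mm9.

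A gene needed at least 1 FPKM in 2 or more samples. The test was limma 3.58.1 under R 4.3.3, with its trend and robust options, on log2(FPKM + 1), which understates the change of low genes, with Benjamini-Hochberg adjustment over all tested genes and a threshold of 0.05. The procedure was checked on simulated data. An exact permutation test of 2 against 2 samples cannot go below p = 0.333 and was not used. Peaks and anchors were counted where at least 1 base overlapped the locus with 1 kb on each side. Promoters came from RefSeq (GRCm38.p6) by symbol, and their strand gave which end of an mm9 locus is the start. Python 3.11.15 was used.

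Members and lists were chosen with earlier results of these data known. Named with values in every sample were, per role, the 4 members with the largest difference, each member not called and the most abundant member. Also named, some by their difference alone, were the 2 called genes with the largest difference in each other list and any called against its majority; the 8 neighbours with the largest called difference; and the 5 members with the most contacts, ties included. Contacts and genes named beyond this rule were chosen after their values were seen. Alternatives were other pseudocounts, filters and scalings, limma without options, a replicate block, leaving out each sample, and other windows.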

Additional observations from a re-analysis of the deposited data

How the results depend on the processing

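Of the members, 29 were called higher in every fit that kept all 4 samples without a block (of the 35, not Imp4, Ebna1bp2, Bop1, Rrp12, Polr1b and Noc4l), and 18 in each of the 4 fits that left out a sample; Nop10, Imp3, Nip7 and Ddx10 were called in none of those 4. Leaving out each sample gave 18 to 39 members called higher, a median log2 difference of 0.67 to 1.09, 27 to 71 higher and 0 to 1 lower in the other lists, and 1735 to 2859 higher and 1191 to 2834 lower over all genes. In these fits a lone sample is assumed to vary like the other group. The difference of Nop10 was -0.10 with quantile normalization and -0.229 to 0.505 when a sample was left out, and that of Imp3 was -0.0113 with quantile normalization. Calls of lower genes in the other lists were 0 without a filter and 2 with quantile normalization, and a mean of at least 5 FPKM gave 1852 lower genes over all, with fewer genes tested. The cause of the other shifts was not tested. The E-box was in 3 members when only the 250 bases before the start were searched. In the 50 bases from the start, a window added after the data had been seen, ETS cores were in 4, GC boxes in 3, CCAAT in 2, NRF1 half-sites in 0 and TATA boxes in 0 members, in a shorter sequence.

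With the replicate number as a block, 36 members were called higher and 0 lower, with 3317 higher and 2964 lower over all genes and 65 higher in the other lists. Same-numbered samples share only a number; their deviations from the group means had a correlation of 0.124, and only 2 pairs exist. Also added after the data had been seen were the window at the RefSeq start and the merging of Hi-C partner regions. Unknown depth and 2 samples a group limit all RNA tests.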
